A study of Rattus norvegicus with 2 samples.

Results

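The cells described here are the rat neural stem cells that held the least cell cycle RNA. They were chosen by measured values: a cell with at least 5000 UMIs and at most 10% mitochondrial (Mt-) UMIs was ranked by its cycle share, the percentage of its UMIs that came from 17 cell cycle genes. A UMI is a molecular tag that lets each captured RNA molecule be counted once. The lowest 15% over both libraries together were kept, which gave 533 of 3548 ranked cells out of 4691 barcodes. They are called low-cycle cells below, and the others of the same library are called cycling-range cells. The 17 genes were Pcna, Mcm3, Mcm5, Mcm6, Tyms, Rrm1 and Ube2t, which act in S phase, and Hmgb2, Cdk1, Top2a, Mki67, Cenpf, Birc5, Tpx2, Ccnb1, Nusap1 and Smc4, which act in G2 and mitosis. Every gene was counted in the cells that were ranked, so the ratios between low-cycle and cycling-range cells are descriptions of the chosen cells and carry no test.

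The cultures were primary stem cells from the cortex of Sprague-Dawley rats at E14.5, bought as a commercial stock, and both grew in FGF2 medium. The treated culture received ZD7288 (written ZD2788 in one label), a blocker of HCN channels (the pacemaker channels that open when the membrane hyperpolarises), at 30 µM in 0.2% DMSO. The vehicle culture received 0.2% DMSO alone. Exposure lasted 48 h with fresh medium at 24 h, and each group was 1 sample and 1 droplet library, so treatment, sample and library cannot be told apart and no p-value or replicate error exists.

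A cell that leaves the cycle stops making the RNA of replication and mitosis. In the textbook account, E2F factors drive S phase genes, while the DREAM and MuvB complexes act on G2 and mitotic genes through a short promoter element called CHR, often near CCAAT boxes bound by NF-Y. CDK inhibitors such as p21, the product of Cdkn1a, and p15, the product of Cdkn2b, hold the cyclin-dependent kinases off and keep the E2F targets silent, and neural stem cells can rest in such a state or pass through it on the way to differentiation.

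The low-cycle cells were shallower than the cycling-range cells, with median UMIs of 13208 against 17762 in the vehicle library and 21850 against 24452 in the ZD7288 library. Median mitochondrial shares were 6.39% against 5.83% and 4.81% against 4.80%. Thinned to 5000 UMIs, a low-cycle cell held a median of 1640 and 1746 genes, and a cycling-range cell 1734 and 1818. A simulated doublet score marked 0 vehicle and 3 ZD7288 low-cycle cells, against 5 and 94 cycling-range cells. The libraries shared 3 barcode sequences, 1 of them on a low-cycle cell.

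Low-cycle cells made up 5.07% of ranked vehicle cells (36 of 710, exact 95% interval 3.58 to 6.95) and 17.5% of ranked ZD7288 cells (497 of 2838, 16.1 to 19.0). Intervals here and below cover counting error only. They were taken as the end of a range, not as a cell type. The cycle share at the edge was 0.1046%, the nearest cells inside it stood at 0.1043 to 0.1046% and the nearest outside at 0.1046 to 0.1048%, and 16 vehicle and 158 ZD7288 cells lay within 20% of it. In the treated library the distribution had a low peak of its own: 10.3% of treated cells had a share from 0.05 to 0.10%, 5.88% from 0.20 to 0.25% and 11.6% from 0.35 to 0.40%. In the vehicle library 1.97% of cells lay in the first of these steps, 8.87% in the second and 11.7% in the third. Ranking by the S phase genes of the rule alone brought the shares closer, to 12% of vehicle and 15.8% of ZD7288 cells, and ranking by its G2 and mitotic genes alone gave 5.49% and 17.4%.

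**Figure D1:**
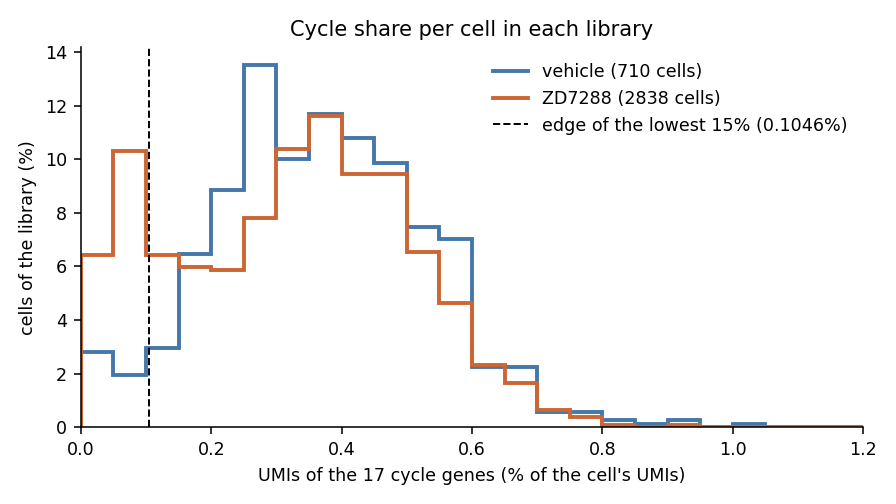
Cycle share per cell (UMIs of the 17 rule genes as % of the cell's UMIs, x axis) against the percentage of the library's ranked cells in steps of 0.05 (y axis), with vehicle in blue and ZD7288 in orange. The dashed line is the edge at 0.1046%; the treated library has a low peak below it that holds 10.3% of its cells in the step from 0.05 to 0.10%, against 1.97% in the vehicle library.

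The low cycle share was shared by cycle genes that the rule did not use. A gene was counted as measured at 50 CPM (counts per 1000000 summed UMIs) or more in the higher group, and called higher or lower at 1.5-fold. Of measured S phase genes outside the rule, 18 of 21 were lower in low-cycle cells of the vehicle library and 22 of 22 in the ZD7288 library, with median log2 ratios of -1.05 and -1.54. Of G2 and mitotic genes outside it, 32 of 33 and 34 of 34 were lower, with medians of -3.02 and -2.82, and none of either list was higher. Over all measured genes, 12.3% were called lower in the vehicle library (329 of 2669) and 7.29% in the ZD7288 library (205 of 2814), and the medians were -0.05 and -0.02. These lists are co-expressed with the genes of the rule, so their direction follows from the choice of cells. Cells ranked by the S phase genes of the rule alone gave a vehicle median of 0.26 for the G2 and mitotic genes.

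Ccna2, whose product cyclin A2 partners CDK2 and CDK1, stood at 11.9 CPM in vehicle low-cycle cells against 143 in cycling-range cells, and at 15.2 against 169 in the ZD7288 library. Prc1, a bundler of the central spindle, stood at 5.93 against 105 CPM and 10.7 against 124. Aurkb, a mitotic kinase, stood at 7.90 against 86.6 CPM and 6.96 against 80.3. Lower by folds of 11.1 (9.58 to 13.0), 11.6 (9.70 to 14.0) and 11.5 (9.23 to 14.6) in the ZD7288 library, the 3 genes had wide vehicle intervals of 5.53 to 32.9, 6.07 to 86.3 and 4.27 to 40.3, from 6, 3 and 4 UMIs in the low-cycle cells. The S phase list was lower by a smaller median fold. Gmnn, which encodes geminin, a brake on repeated origin licensing, stood at 53.3 against 186 CPM in the vehicle library and 29.7 against 161 in the ZD7288 library. Tk1, a thymidine kinase, stood at 27.7 against 139 and 33.6 against 152 CPM.

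Promoter letters are shown because the textbook account above ties S phase genes to E2F and G2 and mitotic genes to CHR. RefSeq promoters of build GRCr8, 250 bases before to 50 after the start, were searched on both strands for CHR (TTTGAA or TTTAAA), an E2F core (TTTGGCGC, TTTCCCGC or TTTCGCGC) and CCAAT. CHR was present in 42 of 50 promoters of the G2 and mitotic list outside the rule (84.0%) and in 28.3% of all 33469 promoters. An E2F core was present in 15 of 33 promoters of the S phase list (45.5%) and in 1.72% of all promoters, and CCAAT in 72.0% and 54.5% of the 2 lists and 37.5% of all. Among 16 promoters of the rule genes, 9 held CHR (56.2%), 5 an E2F core (31.2%) and 15 CCAAT (93.8%). Of 9 promoters of the 12 genes lowest in both libraries, 3 held CHR (33.3%) and 0 an E2F core. The promoters of Tk1, Mybl2 and Cdkn2c held none of the 3 elements. Kifc1, a mitotic kinesin that was among the genes lowest in both libraries, has CHR at position -22 (the first base of the match, counted from the start) and CCAAT at -99 and -70, and Gmnn has an E2F core at 38 and CCAAT at -39. Kifc1 lies at chr20:5000679-5000978 on the plus strand and Gmnn at chr17:40729584-40729883 on the plus strand. Capitals mark the matches, none of which overlap.
Kifc1: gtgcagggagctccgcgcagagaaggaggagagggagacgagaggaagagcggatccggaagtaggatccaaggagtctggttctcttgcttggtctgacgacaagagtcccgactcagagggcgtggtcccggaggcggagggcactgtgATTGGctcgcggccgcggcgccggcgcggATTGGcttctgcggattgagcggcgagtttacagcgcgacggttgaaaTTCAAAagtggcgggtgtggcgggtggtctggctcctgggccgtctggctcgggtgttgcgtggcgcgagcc
Gmnn: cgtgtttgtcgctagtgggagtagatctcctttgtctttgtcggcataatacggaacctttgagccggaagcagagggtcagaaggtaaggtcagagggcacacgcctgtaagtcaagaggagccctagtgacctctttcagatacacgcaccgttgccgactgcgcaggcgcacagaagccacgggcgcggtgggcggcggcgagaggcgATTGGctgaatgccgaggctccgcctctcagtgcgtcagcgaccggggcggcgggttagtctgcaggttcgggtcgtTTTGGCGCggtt

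The 4 genes given as markers of these cells, chosen on values of the same cells, had a higher CPM in low-cycle than in cycling-range cells of both libraries, but in the vehicle library only Cdkn1a reached the 50 CPM floor. Cdkn1a encodes p21, an inhibitor of CDKs and a classic p53 target. It stood at 170 CPM in vehicle low-cycle cells and 52.7 in vehicle cycling-range cells, and at 271 and 182 CPM in the ZD7288 library. Its ratio was 3.22 (2.55 to 4.03) in the vehicle library and 1.49 (1.43 to 1.55) in the ZD7288 library, just under the 1.5-fold rule. The interval of the vehicle low-cycle level, 136 to 210 CPM, holds the level of treated cycling-range cells. With the mitochondrial limit at 5%, the log2 ratio of Cdkn1a was 0.18 in place of 0.58 in the ZD7288 library and -1.94 in place of 1.69 in the vehicle library, where 5 low-cycle cells were left. With the lowest 15% of the vehicle library taken on its own it was 1.12.

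Cdkn2b, which encodes the INK4 inhibitor p15 of CDK4 and CDK6, stood at 102 CPM in low-cycle and 56.2 CPM in cycling-range cells of the ZD7288 library, a ratio of 1.82 (1.70 to 1.94). In the vehicle library it stood at 17.8 and 5.45 CPM, the former from 9 UMIs (ratio 3.26, 1.44 to 6.50). Fam43a stood at 59.5 against 14.1 CPM in the ZD7288 library, a ratio of 4.22 (3.81 to 4.67), and it had the largest ratio of all measured genes there. In the vehicle library 3 UMIs gave 5.93 CPM against 3.19, a ratio of 1.86 with an interval of 0.370 to 5.76 that holds 1. G0s2, an inhibitor of the fat-splitting lipase ATGL named for the switch from G0 to G1, stood at 21.5 against 7.41 CPM in the ZD7288 library (ratio 2.90, 2.47 to 3.40), below the 50 CPM floor. Its 4 UMIs in vehicle low-cycle cells gave 7.90 CPM against 1.46. After thinning to 5000 UMIs, 58.3% of vehicle and 22.1% of ZD7288 low-cycle cells held no UMI of any of the 4 genes, against 82.5% and 38.7% of cycling-range cells. Without thinning, 36.1% and 2.62% of low-cycle cells held none, against 50.9% and 5.68%. The part of free RNA in these shares was not tested, since no cell type known to lack the genes was present in number.

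The promoters of Cdkn1a and Fam43a are shown as the marker with the highest CPM in low-cycle cells and the marker with the largest ratio in the ZD7288 library. Neither holds CHR, an E2F core or CCAAT in this window. A search for the p53 decamer, added after the values were seen, found 1 match in each, at position -201 and -172 from the start, and at least 1 match in 7.98% of all promoters. The promoters of the other 2 markers, Cdkn2b and G0s2, held none, and that of Cdkn2c, described next as lower in low-cycle cells, held 1 at -11. Cdkn1a lies at chr20:7150682-7150981 on the plus strand and Fam43a at chr11:83636264-83636563 on the minus strand, and capitals mark the decamers.
Cdkn1a: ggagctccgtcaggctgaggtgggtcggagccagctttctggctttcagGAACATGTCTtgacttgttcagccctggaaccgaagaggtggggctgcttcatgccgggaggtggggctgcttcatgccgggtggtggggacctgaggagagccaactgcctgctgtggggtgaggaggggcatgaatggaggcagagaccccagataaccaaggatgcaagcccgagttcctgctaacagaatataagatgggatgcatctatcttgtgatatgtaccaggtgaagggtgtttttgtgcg
Fam43a: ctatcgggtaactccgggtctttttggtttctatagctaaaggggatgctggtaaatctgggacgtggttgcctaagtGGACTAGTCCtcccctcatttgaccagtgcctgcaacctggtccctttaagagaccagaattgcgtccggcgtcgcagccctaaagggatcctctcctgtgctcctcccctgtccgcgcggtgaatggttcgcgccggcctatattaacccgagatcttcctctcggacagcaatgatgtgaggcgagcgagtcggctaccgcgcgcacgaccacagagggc

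The other CDK inhibitor genes were lower in low-cycle cells or below the 50 CPM floor. Cdkn2c, which encodes the INK4 inhibitor p18, was lower in low-cycle cells, at 17.8 against 72.3 CPM in the vehicle library and 10.5 against 58.1 in the ZD7288 library, 5.52-fold lower there (4.59 to 6.69). Cdkn3, a phosphatase that acts on CDK2 and is made in mitotic cells, stood at 105 against 218 and 91.6 against 172 CPM. Cdkn1b, which encodes p27, a protein long tied to resting cells, stood at 19.8 against 23.3 CPM and 19.8 against 27.9 CPM. Cdkn1c (p57) stood at 11.9 against 11.6 CPM in the vehicle library, from 6 UMIs in the low-cycle cells, and at 9.90 against 3.52 CPM in the ZD7288 library. Cdkn2a stood at 19.8 against 11.5 and at 17.8 against 18.1 CPM. Among G1 regulators, 1 of 7 measured genes was higher and 3 were lower in the vehicle library, and 0 of 8 and 2 in the ZD7288 library. The lower ones in both were Cdk2 (15.8 against 52.4 and 21.1 against 57.4 CPM) and Mybl2, a MuvB partner that drives mitotic genes (17.8 against 70.7 and 12.1 against 65.9 CPM). Over all measured genes 3.97% were higher and 12.3% lower in the vehicle library, and 1.85% and 7.29% in the ZD7288 library. The G1 list is too short for its counts to be read against these shares.

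Levels over the whole range of the cycle share, in 7 bins of which the first is the low-cycle cells, separated genes that stood apart in that bin from genes that followed the range. Cdkn1a stood at 170 CPM in the first vehicle bin, 74.4 in the second and between 39.1 and 83.0 in the others, and at 271 CPM in the first treated bin and 159 to 200 in the other 6. Cdkn2b in the treated library likewise stood at 102 CPM and then between 44.7 and 69.9. Fam43a in the treated library stood at 59.5 CPM in the first bin, 19.9 in the second and 6.32 in the last, a decline along the range after a first step. Tmem150a declined from 51.4 to 12.1 CPM over the vehicle bins and from 56.7 to 19.3 over the treated bins. Cdkn2c went the other way, from 17.8 to 115 CPM over the vehicle bins, with 1 step down, and from 10.5 to 99.6 over the treated bins, with none.

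**Figure D2:**
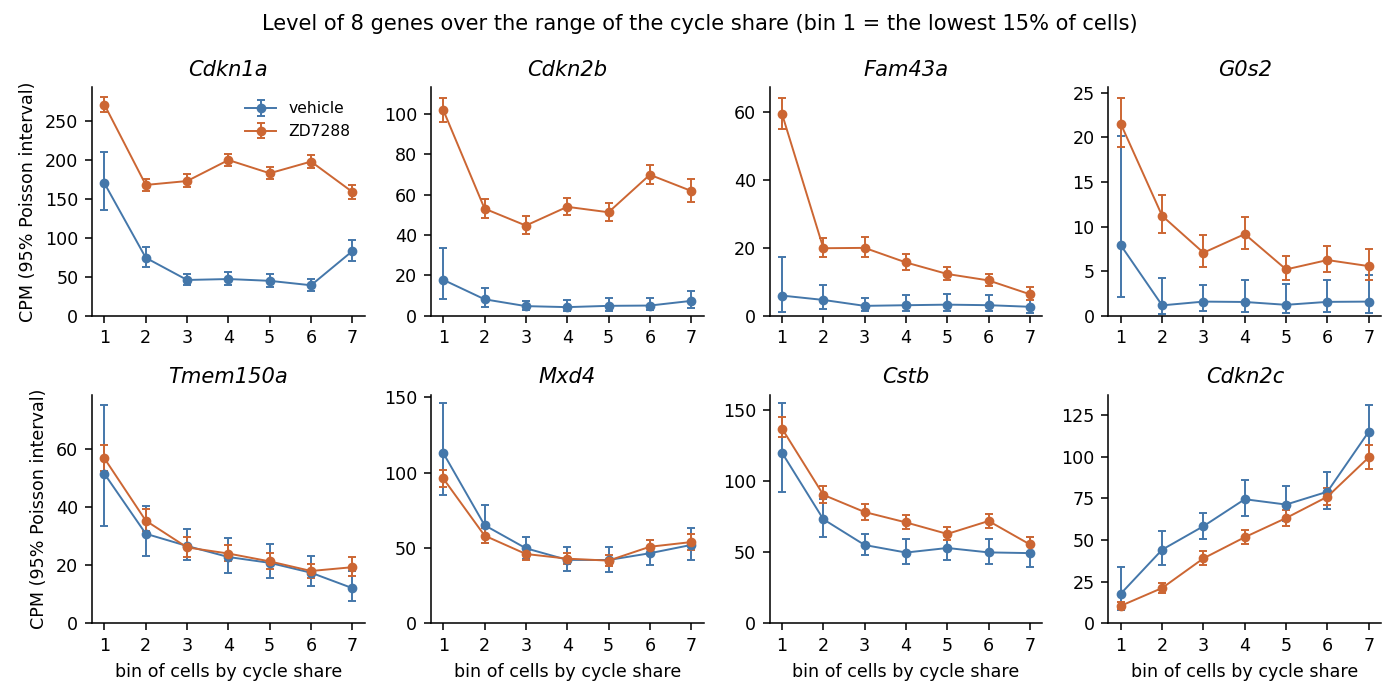
CPM of 8 genes with exact 95% Poisson intervals (y axis) in 7 bins of cells by cycle share (x axis, bin 1 = the low-cycle cells, each bin a 15% step and the last the rest), vehicle in blue and ZD7288 in orange. Cdkn1a and Cdkn2b are highest in bin 1, Tmem150a and treated Fam43a decline along the range, and Cdkn2c climbs from 17.8 and 10.5 CPM to 115 and 99.6.

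Over all genes, 106 of 2669 measured genes were higher in the vehicle low-cycle cells (3.97%) and 52 of 2814 in the ZD7288 low-cycle cells (1.85%). Of 2484 genes measured in both libraries, 67 were higher in the vehicle library and 25 in the ZD7288 library. Of these, 16 were higher in both, which is 23.9% of the 67 and 64.0% of the 25. Among the same 2484 genes, 310 were lower in the vehicle library, 187 in the ZD7288 library and 144 in both. Outside the cycle lists 248 were lower in the vehicle and 121 in the ZD7288 library. Of these, 82 were lower in both (33.1% and 67.8%). Of the 2484 genes, 0 were higher in 1 library and lower in the other. The vehicle count rests on 36 cells and on the edge: with the lowest 15% of the vehicle library taken on its own (107 cells), 13 genes were higher and 111 lower. The ZD7288 counts were then 58 and 210.

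The 12 genes highest in both libraries had ratios above 1.5 in each. Tmem150a, a membrane protein of the DRAM family, stood at 51.4 against 22.1 CPM in the vehicle library and 56.7 against 23.8 in the ZD7288 library, ratios of 2.33 (1.5 to 3.47) and 2.38 (2.17 to 2.62). Mxd4, which encodes a MAD family partner of MAX that opposes MYC, stood at 113 against 48.7 and 96.1 against 48.5 CPM, ratios of 2.31 (1.73 to 3.03) and 1.98 (1.85 to 2.12). Pdcd4, an inhibitor of the translation factor eIF4A, stood at 146 against 53.7 and 114 against 71.9 CPM. Cstb, an inhibitor of lysosomal cathepsins, stood at 120 against 54.3 and 137 against 71.9 CPM. The low-cycle level exceeded the cycling-range level in both libraries for each of the 4.

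Sqstm1, the autophagy receptor p62, stood at 84.9 against 48.9 CPM and 166 against 92.9. Mllt11 stood at 81.0 against 47.6 and 149 against 76.3 CPM. Cald1 (caldesmon, an actin regulator) stood at 71.1 against 35.6 and 67.0 against 37.7 CPM. Lgals1 (galectin-1) stood at 198 against 126 and 238 against 130 CPM, a log2 ratio of 0.87 in the ZD7288 library that was 0.64 without 5 collagen-rich cells described below. The other 4 of the 12, Hist1h2bcl1, Grina, Smim14 and Abhd4, had ZD7288 ratios from 1.66 to 1.79 and vehicle ratios from 1.78 to 2.20. The 12 genes were picked for being higher in both libraries, so that they were is a description. At a mitochondrial limit of 5%, which left 5 vehicle low-cycle cells, the vehicle log2 ratio was -0.71 for Tmem150a, -0.99 for Pdcd4, -0.90 for Mllt11 and -0.25 for Cald1.

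The 12 genes lowest in both libraries, picked outside the rule and the S phase and G2 and mitotic lists, were mostly genes of mitosis, centromere and chromatin as well. Kifc1 stood at 3.95 against 61.6 CPM in the vehicle library, from 2 UMIs (15.6-fold lower, 4.30 to 129), and at 7.41 against 81.4 in the ZD7288 library, 11-fold lower (8.85 to 13.8). Pimreg, a mitotic regulator, stood at 17.8 against 114 and 14.1 against 107 CPM. Centromere and kinetochore genes were Cenpn, Cenpt, Cenph, Mis18a, Ska1 and Spc24, with ZD7288 ratios from 0.151 (Ska1) to 0.242 (Spc24). Sapcd2 stood at 57.3 against 180 and 22.9 against 147 CPM, and H2afx, the histone variant marked at DNA breaks, at 65.2 against 284 and 66.0 against 245 CPM. Cdkn2c and Mybl2 completed the 12.

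**Figure D3:**
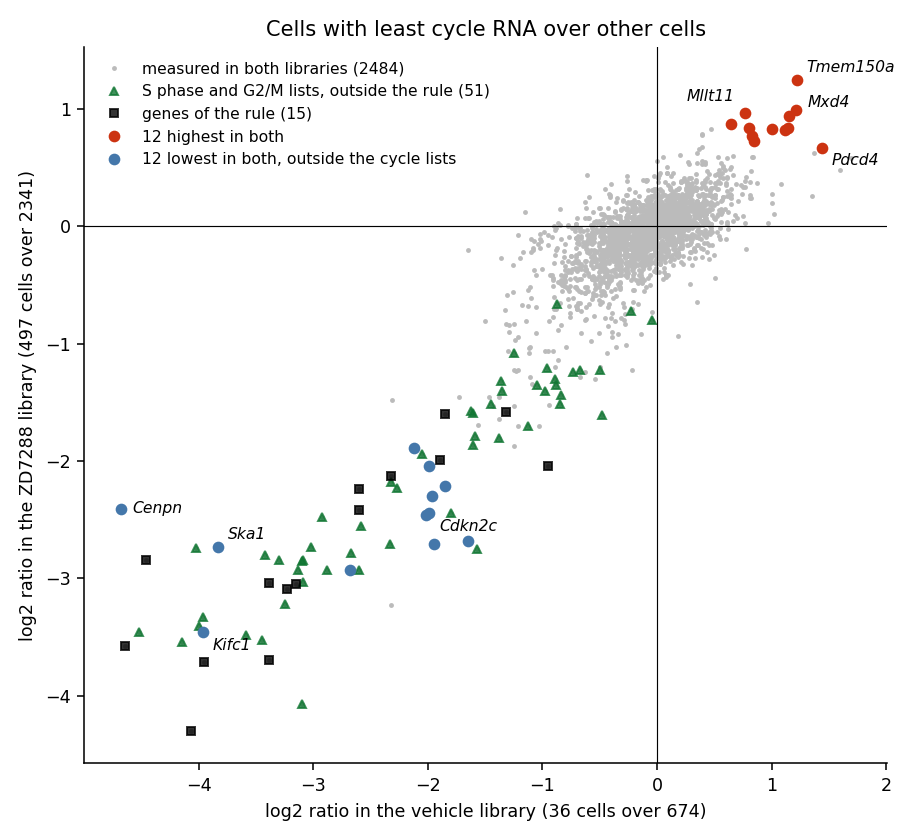
Log2 ratio of summed CPM, low-cycle over cycling-range cells, in the vehicle library (x axis) and the ZD7288 library (y axis) for the 2484 genes measured in both. Genes of the rule (black squares) and the S phase and G2/M lists outside it (green triangles) lie at the lower left with the 12 genes lowest in both (blue), and the 12 highest in both are in red; for Mxd4 the point is 1.21 and 0.99.

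Pathway lists outside the cycle had more calls in the vehicle than in the ZD7288 library for p53 targets, quiescence genes and glycolysis genes, the vehicle calls resting on 36 cells. Over all measured genes the share called higher was itself larger in the vehicle library, 3.97% against 1.85%. Of p53 targets, 6 of 10 measured genes were higher and 0 lower in vehicle low-cycle cells (median log2 0.74), and 0 of 12 passed in the ZD7288 library, where the median was 0.34. The vehicle genes were Cdkn1a, Ddit4 (55.3 against 18.3 CPM), Phlda3 (67.2 against 26.0), Ccng1 (381 against 180), Mdm2 (53.3 against 31.1) and Btg2 (324 against 199). Ddit4, Phlda3 and Mdm2 reached the 50 CPM floor only in the low-cycle cells. They could therefore enter the count and the median only on the higher side, and the same can hold for members of the other lists. The lists share genes, so their counts are not separate: Ddit4 is also in the ATF4 list and Ccng1 among the G1 regulators. Aldoc, a quiescence gene named below, is also a glycolysis gene and an astrocyte marker. In the ZD7288 library Ccng1 stood at 264 against 205 CPM and Btg2 at 228 against 196, both below 1.5-fold. At a mitochondrial limit of 5% the list medians were 0.31 and 0.14. Genes of quiescent neural stem cells had 4 of 14 higher in the vehicle library (Mt1, Aldoc, Id3 and Sox9) and 1 of 12 in the ZD7288 library (Mt2A), with medians of 0.26 and 0.08. Glycolysis and hypoxia genes had 6 of 12 higher in the vehicle library, with a median of 0.57 (-0.05 with cells ranked by S phase genes), and 1 of 10 in the ZD7288 library, with 0.08. Their summed vehicle level was 7168 CPM in the low-cycle cells, 4912 to 5485 in the next 5 bins of the cycle share and 6739 in the bin with the most cycle RNA, so it was high at both ends of the range. Bnip3, a mitophagy receptor induced in hypoxia, stood at 213 against 84.0 CPM in the vehicle library and 70.2 against 58.8 in the ZD7288 library.

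Lists of growth and metabolism differed in their calls. Ribosomal protein genes had 0 of 53 called in either direction in each library, with medians of 0.10 and 0.09. Ribosome biogenesis genes had 7 of 23 lower in the vehicle library and 0 of 30 in the ZD7288 library, with medians of -0.24 and -0.06, against 12.3% and 7.29% lower over all measured genes. Nuclear genes of oxidative phosphorylation had 0 of 44 called in each. Lysosome and autophagy genes had 2 of 20 and 2 of 23 higher (Sqstm1 and Map1lc3a in both libraries) and 0 lower, with medians of 0.24 and 0.32. Over all measured genes 3.97% and 1.85% were higher. Map1lc3a, an LC3 protein of the autophagosome, stood at 168 against 106 and 170 against 112 CPM.

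**Figure D4:**
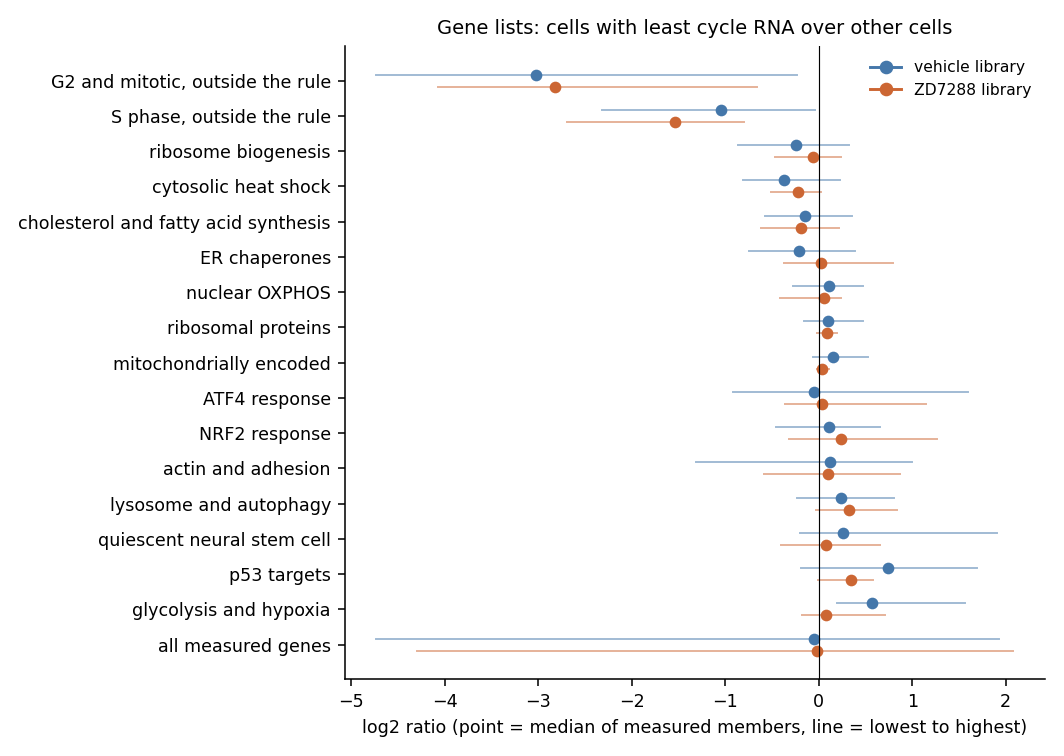
Median (point) and lowest to highest (line) log2 ratio of the measured members of 16 gene lists and of all measured genes (rows), low-cycle over cycling-range cells, in the vehicle library (blue) and the ZD7288 library (orange); the x axis is the log2 ratio. The cycle lists stand at -1.05 to -3.02, and p53 targets at 0.74 in the vehicle and 0.34 in the ZD7288 library against -0.05 and -0.02 over all genes. Some members, such as Ddit4, Phlda3 and Mdm2 in the vehicle library, were measured only through the group where they were higher.

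Oxidative stress genes of the NRF2 list were among the genes higher in treated low-cycle cells. The ATF4 list (amino acid supply and stress) was nearly level across the treated cells: 2 of 36 genes were higher in low-cycle cells (Ppp1r15a and Cth), with a median of 0.04, and a cell thinned to 5000 UMIs held 45.6 ± 15.7 list UMIs (SD over 497 cells) against 43.3 ± 14.6 (2341 cells). Of 19 measured NRF2 genes 4 were higher and none lower (median 0.24), and over all measured genes 1.85% were higher. They were Nqo1, a quinone reductase (77.0 against 32.1 CPM), Hmox1, heme oxygenase (181 against 84.0), Gstp1, a glutathione transferase (2138 against 1249), and Fth1, ferritin heavy chain (5281 against 3516). A thinned cell held 88.9 ± 31.5 NRF2 list UMIs against 68.3 ± 17.5, so the low-cycle cells were also more spread. In vehicle cells the same counts were 53.5 ± 10.7 (36 cells) and 51.9 ± 9.58 (674 cells). The summed NRF2 list level fell along the treated bins of the cycle share. It stood at 17880 CPM in the first bin, 15081 in the second and 12653 in the last.

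The largest treated ratios beside Fam43a were those of Ifi27l2b, an interferon-inducible gene family member (181 against 55.2 CPM, ratio 3.28, 3.10 to 3.46), Pdlim4, a PDZ and LIM domain protein of actin fibres (64.0 against 23.7), Mgmt, a DNA repair enzyme (50.1 against 20.6), Nqo1 and Tmem150a. In the vehicle library Mgmt stood at 47.4 against 12.1 CPM, below the 50 CPM floor (ratio 3.92, 2.45 to 6.02, from 24 UMIs in low-cycle cells). Ifi27l2b stood at 5.93 against 0.532 CPM there, from 3 UMIs in low-cycle cells (ratio 11.1, 1.90 to 46.4). Nqo1 had 1 UMI in vehicle low-cycle cells. Igfbp3, a binder of insulin-like growth factors, stood at 299 against 168 CPM in the treated library and 59.3 against 42.7 in the vehicle library. Dscc1, a subunit of the alternative clamp loader, was lower by 5.78-fold in treated low-cycle cells (4.73 to 7.15), at 8.74 against 50.6 CPM, and stood at 29.6 against 45.5 in the vehicle library.

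Comparing the libraries within low-cycle cells, 516 of 2753 measured genes (18.7%) had a ZD7288 level above the vehicle level by the 1.5-fold rule and 209 a lower one (7.59%). Within cycling-range cells 271 of 2803 were higher (9.67%) and 72 lower (2.57%). The vehicle low-cycle sum held 506306 UMIs against 15042752 for cycling-range cells, so its ratios carry more counting error. The median over all measured genes was 0.13 in low-cycle and 0.11 in cycling-range cells, and list medians are read against these. ATF4 genes were higher in both kinds of cell, 32 of 33 with a median of 2.00 and 33 of 34 with 1.80. NRF2 genes had 10 of 18 higher with a median of 0.79, and 6 of 16 with 0.48. Gstp1 was 5.11-fold higher (4.46 to 5.87) between low-cycle cells and 3.91-fold (3.80 to 4.03) between cycling-range cells.

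Several genes, picked as examples, had a smaller ZD7288 ratio among low-cycle cells, where the vehicle level was itself higher than in cycling-range cells. The contrast restates their ratios within the libraries. For Cdkn1a the ZD7288 ratio was 1.60 (1.29 to 2.00) in low-cycle and 3.45 (3.21 to 3.72) in cycling-range cells, and for Cdkn2b it was 5.74 (3.01 to 12.6) and 10.3 (8.28 to 13.0). The 2 intervals of Cdkn2b overlap. For Ddit4 the ratio was 1.30 (0.893 to 1.97) and 2.82 (2.49 to 3.20). Trib3 had 15.3 (5.21 to 74.2) and 115 (58.5 to 267), from 3 UMIs in vehicle low-cycle cells. Not all genes went this way. Mllt11, also higher in vehicle low-cycle cells, had 1.84 (1.35 to 2.58) and 1.60 (1.48 to 1.74). Tbxas1 had 28.9 (7.97 to 239) and 6.19 (5.31 to 7.25), with 2 UMIs in vehicle low-cycle cells. Lower in the treated low-cycle cells were genes of oligodendrocyte progenitors, 3 of 3 in both kinds of cell. Olig1, a lineage factor, stood at 949 CPM against 2317 in vehicle low-cycle cells and at 887 against 1666 in cycling-range cells. Olig2 stood at 258 against 565 and 269 against 426 CPM, and Cnp, a myelin enzyme, at 75.7 against 275 and 66.1 against 138. Of 3 measured Notch pathway genes 2 were lower among low-cycle cells: the receptor Notch1, with a log2 ratio of -1.94 (-1.18 in cycling-range cells), and Hes6, with -1.52 (-0.57). Glycolysis and hypoxia genes had 7 of 13 lower and 1 higher among low-cycle cells, with a median of -0.61, and 1 of 10 in each direction among cycling-range cells, with 0.15. The 2 sets of measured genes differ. Genes such as Pfkl reached the 50 CPM floor only in vehicle low-cycle cells and could enter only as lower, so the 2 medians are not a like comparison. With cells ranked by the S phase genes of the rule, the low-cycle median was 0.24.

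The genes with the smallest ZD7288 ratios among low-cycle cells were Cfap52, a ciliary protein gene (5.89 against 73.1 CPM), Rap1gap, a regulator of the GTPase RAP1 (14.3 against 107), Mmd2 (8.65 against 61.2), Aif1l (12.1 against 81.0), Mt1, a metallothionein (16.1 against 81.0), Pfkl, a phosphofructokinase (13.0 against 65.2), Narf (12.1 against 53.3) and Notch1. All were also lower among cycling-range cells, at log2 ratios from -2.77 (Cfap52) to -0.52 (Mt1). The largest ratios were those of Pck2, Nqo1, Ifi27l2b, Tbxas1, Cth, Trib3, Slc7a11 and Gclc. Their vehicle low-cycle sums held 1 to 3 UMIs, so the folds are not placed well: Cth, an enzyme of cysteine synthesis, had an interval of 8.60 to 122 around 25.2, and 26.3 (20 to 35.3) in cycling-range cells.

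**Figure D5:**
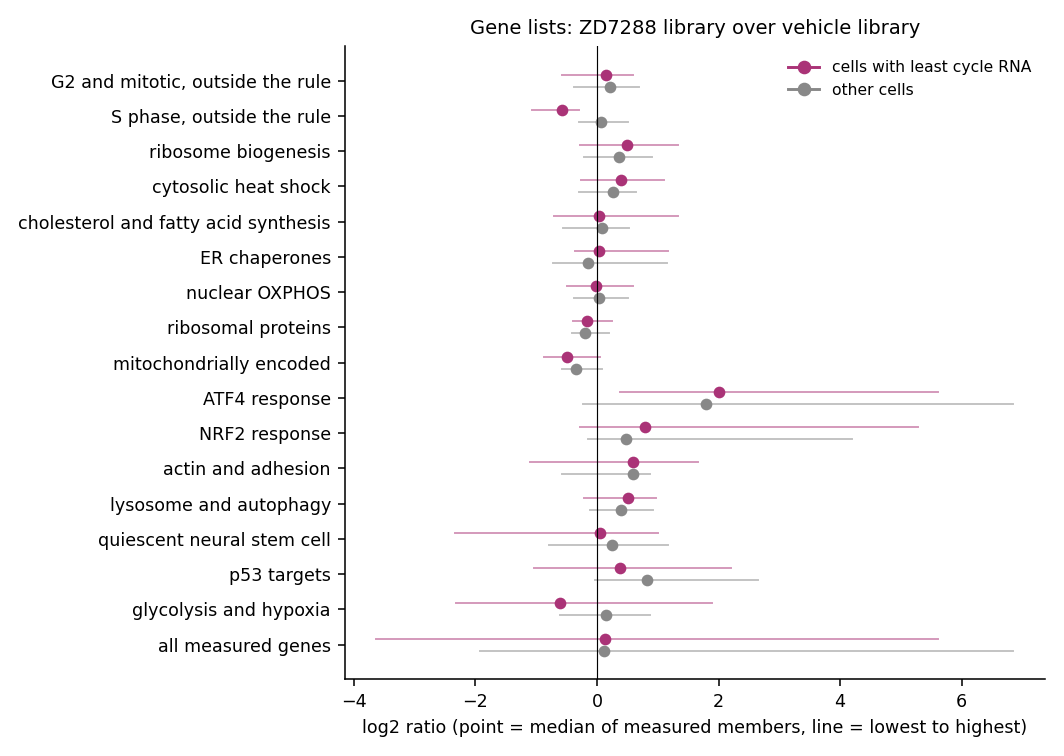
Median (point) and lowest to highest (line) log2 ratio of ZD7288 over vehicle CPM for the measured members of the same lists (rows), in low-cycle cells (purple) and cycling-range cells (grey). ATF4 genes stand at 2.00 and 1.80, p53 targets at 0.38 and 0.82, and glycolysis and hypoxia genes at -0.61 and 0.15, against 0.13 and 0.11 over all measured genes. The measured members of a list differ between the 2 kinds of cell, with 13 and 10 for glycolysis and hypoxia.

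Among themselves the low-cycle cells fell into 4 clusters, built on 2000 variable genes without cycle, ribosomal protein and mitochondrial genes. Cluster sizes are not compared between the libraries, because genes that differ between them entered the clustering, and leading genes only describe a cluster. Cluster 1 (177 cells, 33 of them vehicle) was led by Pttg1, Cdkn3, H2afv and Stmn1, genes of cell division and chromatin, and had the highest S phase list level at 1237 CPM against 726 to 859 in clusters 3 and 4. Cluster 3 (247 cells, all ZD7288) was led by Ifi27l2b, Nqo1, Hmox1 and Fam43a, with 89.5 CPM of Fam43a and 20476 CPM of the NRF2 list. That list stood at 13811 CPM in cluster 1, 16092 in cluster 4 and 13698 in treated cycling-range cells. Cluster 4 (94 cells, 1 vehicle) was led by Ephx1, Mmp2 and Mgmt, with 535 CPM of Cdkn1a against 184 in cluster 1 and 216 in cluster 3, and with the p53 targets Ccng1 and Phlda3 among its 10 leading genes. The median mitochondrial share was 5.98% in cluster 4, 4.13% in cluster 3 and 5.29% in cluster 1, and its part in the Cdkn1a level was not tested. At resolution 1.0 the highest NRF2 list level was 25838 CPM, in a cluster of 79 cells with 129 CPM of Fam43a. The highest Cdkn1a level there was 525 CPM, in a cluster of 88 cells.

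Fam43a and Cdkn1a were highest in different clusters, and the clustering had read both genes. Cluster 4 held 29.0 CPM of Fam43a and 5887 CPM of the ATF4 list, and cluster 3 held 10619 CPM of the ATF4 list. Across the 497 treated low-cycle cells, all of 1 library and thinned to 5000 UMIs, Spearman's rho between p53 list and ATF4 list UMIs was -0.11, too weak to read in counts this sparse. Between ATF4 list and mitochondrially encoded UMIs it was -0.49, and -0.50 across the 2341 treated cycling-range cells, both being shares of the same 5000 UMIs. Cluster 2 held 15 cells and was left unnamed, since its leading genes came from 1 to 7 cells.

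Markers of blood, vessel and microglial cells were at or near 0, and those of neural lineages were not. Of neural stem cell genes, 1 of 8 was higher (Sox9) and 1 lower (Sox2) in vehicle low-cycle cells, and 0 of 7 passed in the ZD7288 library. Over all measured genes 3.97% were higher and 12.3% lower in the vehicle library, and 1.85% and 7.29% in the ZD7288 library. Nes stood at 119 against 121 CPM in the vehicle and 157 against 130 in the ZD7288 library, Vim at 4288 against 4199 and 4974 against 4642, and Sox2 at 142 against 233 and 215 against 254. The 15 microglia markers summed to 0 UMIs in vehicle and 14 in ZD7288 low-cycle cells, the 6 matched red blood cell markers to 0 in both and the 10 matched endothelial markers to 2 and 55. Neuron markers summed to 367 against 244 CPM in the vehicle and 298 against 261 in the ZD7288 library, and astrocyte markers to 855 against 696 and 849 against 831. Oligodendrocyte progenitor markers summed to 3231 against 2304 and 1341 against 1282 CPM. Oligodendrocyte markers summed to 310 against 181 and 88.0 against 79.1 CPM, with their 1 measured gene, Cnp, called higher in the vehicle library. Ependymal markers summed to 83.0 against 33.6 and 10.3 against 6.76 CPM, with 1 measured gene, Cfap52, called higher in the vehicle library. The part of these cell types in the results was not tested. The 19 mesenchymal markers summed to 13.8 against 17.9 CPM in the vehicle library and 84.2 against 39.3 in the ZD7288 library. Of these, 16 were at 0 UMIs in vehicle low-cycle cells and 2 in treated ones. The vehicle low-cycle sum held 506306 UMIs and the treated one 11208404, so these numbers and the UMI sums of other markers are not comparable between libraries. In cycling-range cells 11 were at 0 in the vehicle and 2 in the ZD7288 library. Col1a1 stood at 11.4 CPM in treated low-cycle and 1.15 in treated cycling-range cells. Collagen came from few cells: of cells with 10 or more, 4 treated low-cycle cells held 44 to 99 UMIs of Col1a1, Col1a2, Col3a1, Dcn and Lum, and 1 cycling-range cell held 141. Without these 5 cells the counts of genes called higher and lower in treated low-cycle cells were 50 and 206 in place of 52 and 205. Without 4 treated cells rich in Stmn2, Snap25, Syt1 and Dcx, 3 of them low-cycle, they were 51 and 205.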

How the data were processed

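Droplet (10x Chromium 3′ v2) libraries of 1 vehicle and 1 ZD7288 culture were read from the deposited UMI counts of 25399 genes in 4691 barcodes, made by the authors with Cell Ranger (version 3.0.2, per the file headers); the genome build is not given in the sources used here. Library membership came from the barcode suffix, matched to the number in the sample titles. Counts were summed over cells of a library and kind, divided by the summed UMIs of all genes, and given as CPM of this work. Ratios carry exact Clopper-Pearson 95% intervals and CPM exact Poisson intervals, which cover counting error only. A sum of 0 was set to 3 counts. With 1 library per group no test was made, and the ratio code was tested on simulated data.

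The members and the 41 gene lists (1007 of 1054 symbols matched) were chosen with earlier results of these data known. Named genes were the 4 markers, CDK inhibitors, the 12 highest and 12 lowest in both libraries, the 6 highest and lowest per library, the 8 highest and lowest between libraries and up to 4 per list; genes named beyond these were chosen after their values were seen. Doublets were scored with simulated pairs and marked, not removed: 102 of the ranked cells. Clusters used 2000 variable genes, 30 components, 20 neighbours and the Leiden method at resolution 0.5, with 1.0 as an alternative. Python 3.11.15, numpy 2.4.6, scipy 1.17.1, pandas 2.3.3 and scanpy 1.11.5 were used. Promoters came from RefSeq, build GRCr8. The alternatives varied the share of cells kept, the UMI and mitochondrial limits, the genes ranked by, the weighting and scaling of cells, the CPM floor and the fold; leaving out collagen-rich or neuron-like cells was added after seeing the data.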

Additional observations from a re-analysis of the deposited data

How the results depend on the processing

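The vehicle results rest on 36 cells, and 1 library per group leaves replicate error unknown. No paired analysis was possible because each group is 1 library. The low-cycle share was 3.24% of vehicle and 11.7% of ZD7288 cells for the lowest 10%, and 7.75% and 23.1% for the lowest 20%. It was 3.14% of vehicle cells at a mitochondrial limit of 5%, and 12% and 15.8% when cells were ranked by S phase genes of the rule. The vehicle count of higher genes, 106, was 182 for the lowest 10%, 63 for the lowest 20%, 13 for the lowest 15% of each library (111 lower), 521 at the 5% limit (700 lower) and 18 under S phase ranking (47 lower). It was 306 with cells thinned to 5000 UMIs and 231 with totals without mitochondrial and ribosomal protein UMIs. The ZD7288 count of higher genes, 52, was 30 under S phase ranking and 79 with those totals. The count lower in ZD7288 low-cycle cells than in vehicle ones, 209, was 657 at the 5% limit, 337 after thinning and 395 with those totals. Floors and folds changed every count. In the order vehicle higher, vehicle lower, ZD7288 higher, ZD7288 lower, treatment higher and treatment lower, they were 377, 765, 118, 368, 974 and 538 at 20 CPM and 34, 147, 28, 102, 254 and 91 at 100 CPM. They were 26, 132, 10, 125, 195 and 66 at 2-fold and 367, 700, 206, 442, 962 and 456 at a fold set lower than 1.5.

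Of 1678 list medians under an alternative, 104 had the opposite sign, and 4 of these came from a list whose reported median was past 1.5-fold. Under S phase ranking the 4 included G2 and mitotic genes (0.26) and CDK inhibitors (0.15) in the vehicle library and glycolysis and hypoxia genes between libraries (0.24), and the fourth, after thinning, was neuron markers between libraries (0.07). The vehicle median of glycolysis and hypoxia genes, 0.57, was -0.05 under S phase ranking. Of 5041 named gene values 172 had the opposite sign, 30 of them for a gene past 1.5-fold. At the 5% limit, where 5 vehicle cells were left, vehicle log2 ratios were -0.99 for Pdcd4, -0.90 for Mllt11, -0.25 for Cald1, -0.71 for Tmem150a, 0.10 for Mybl2, 0.02 for Cdk2, -0.19 for Btg1, -2.42 for Gap43 and -1.94 for Cdkn1a. The ratios between libraries were then 0.04 for Map2, -0.64 for G0s2 and -0.60 for Mt2A. Under S phase ranking vehicle log2 ratios were 0.07 for Prc1, 0.30 for Nrarp, 0.20 for Sapcd2, 0.48 for Tpx2, 0.29 for H2afx, 0.52 for Cenpf, -0.07 for Cfap52, 0.67 for Pimreg, -0.13 for Cnp, 0.25 for Cdkn3, -0.11 for Abhd4, -0.12 for Gap43, 0.07 for Ska1 and 0.11 for Cenpt. The ratio between libraries was 0.06 for Igfbp5 with the lowest 15% of each library and 0.21 at a limit of 10000 UMIs, and after thinning 0.07 for Map2 and -0.05 for Mt2A. The cause of these changes was not tested. In the ZD7288 library Fam43a ranged from 1.68 to 2.28 on the log2 scale over the alternatives, Cdkn2b from 0.72 to 1.06, Hmox1 from 1.02 to 1.19 and Cdkn1a from 0.18 to 0.72.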
